A study of Saccharomyces cerevisiae with 24 samples.

Results

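The 10 autophagy genes ATG1, ATG5, ATG7, ATG8, ATG9, ATG11, ATG13, ATG14, ATG19 and ATG29 were taken by their systematic names from the 6713 transcripts quantified in each library. Their messenger RNA was measured in the *S. cerevisiae* strains YPS606, Y55, UWOPS87-2421 and BY4742, a strain of the S288C laboratory background, in cultures exposed to 20 mM caffeine for 4 h and in cultures without caffeine. All 24 libraries, 3 for each of the 8 combinations of strain and condition, came from cells grown in synthetic defined medium and collected at an optical density of 0.4. Each genetic background was represented by 1 strain, and nothing in the sample descriptions says whether the 3 libraries of a group came from separate cultures. The p-values therefore measure the spread between these libraries, which may be technical.

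Autophagy encloses cytoplasm in a double membrane, the autophagosome, which fuses with the vacuole and is digested there. In yeast it is held low by the TORC1 kinase complex when nutrients are plentiful and rises on starvation or on inhibition of TORC1, of which caffeine is a known inhibitor. The Cvt pathway uses much of the same machinery in growing cells to carry a few enzymes into the vacuole.

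Of the 10 genes, 4 encode proteins that start an autophagosome. These are the protein kinase gene ATG1 (YGL180W, chrVII:160065-162758), its regulatory subunit ATG13 (YPR185W, chrXVI:907218-909434), the scaffold subunit ATG29 (YPL166W, chrXVI:237338-237979) and ATG11 (YPR049C, chrXVI:661137-664673), the scaffold of selective autophagy. ATG9 (YDL149W, chrIV:184925-187918) encodes the membrane protein whose vesicles seed the autophagosome, and ATG14 (YBR128C, chrII:493081-494115) the subunit that directs a lipid kinase to autophagy. The conjugation system is represented by ATG8 (YBL078C, chrII:80378-80731), a ubiquitin-like protein attached to membrane lipid, by its activating enzyme ATG7 (YHR171W, chrVIII:445713-447605) and by ATG5 (YPL149W, chrXVI:271310-272194), part of the complex that attaches it. ATG19 (YOL082W, chrXV:168727-169974) encodes the receptor that brings Cvt cargo to Atg8 and Atg11. The positions are those of the coding sequence in the R64 reference genome, in which each of the 10 genes is a single coding exon.

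The promoters of the 10 genes were searched for 3 short sequences because the genes did not move together in caffeine, and most of the stretches that hold them are shown. They are GATAAG, a site of the GATA factors Gln3 and Gat1, GGCGGC, the core of the site of the repressor Ume6, and AGGGG, the stress response element of Msn2 and Msn4. The search covered both strands of the 300 bases before the start codon, a window that can include transcribed bases. GATAAG was found before 5 of the 10 genes and in 14.7% of 6001 such windows of the genome. GGCGGC was found before 2 of the 10 genes and in 5.2% of windows, and AGGGG before 4 of the 10 genes and in 22.2% of windows. Each line below gives 30 bases from the RefSeq R64 genome in the direction of the gene, with the matches in capitals (CTTATC is GATAAG read on the other strand).
ATG8, chrII:80846-80875: cggttattttcGGCGGCGGCaaaaatattt
ATG8, chrII:80774-80803: gaggAGGGGattGATAAGagaatctaataa
ATG19, chrXV:168628-168657: tgatatgagtttGATAAGgtgtatcagacg
ATG19, chrXV:168672-168701: cgaggtaattgcGGCGGCacttgcttcagt
ATG29, chrXVI:237260-237289: ataaAGGGGtgttagtgaataCTTATCaag
ATG9, chrIV:184857-184886: gtatctcactttGATAAGaagacatttaag
ATG14, chrII:494369-494398: gagtggaattttGATAAGaaaaaaattaaa
The capitals in the first ATG8 line hold 2 copies of GGCGGC that overlap. AGGGG was also found elsewhere before ATG8, ATG9 and ATG19. ATG8 and ATG19 thus had all 3 sequences, whereas ATG1, ATG5, ATG7, ATG11 and ATG13 had none of them. A match is only a description of the letters in this window of the reference strain.

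The libraries held between 8714049 and 29524968 estimated counts, with a median of 21107258. The lowest totals were of Y55, 8714049 in replicate 3 without caffeine and 10429068 in replicate 2 in caffeine. The highest, in caffeine replicate 3, was of Y55 too. The part of these totals in the calls for Y55 was not tested. LEU2, LYS2 and URA3, which are deleted in BY4742, never exceeded 5 counts in its 6 libraries. HIS3, of which BY4742 lacks only a part, had 1693 to 4201 counts there, against 89 to 2101 counts in the other strains. URA3 had 13147 to 67845 counts in YPS606 but only 10 to 2341 in Y55 and 1 to 2114 in UWOPS87-2421, and the part of this spread in the results was not tested. The alpha-specific pheromone gene MF(ALPHA)1 had at least 8803 counts in every library, and the a-specific pheromone gene MFA1 had at most 62. The 6 a-specific genes together were at 81.1 to 111.7 CPM in BY4742 in caffeine and 21.3 to 21.6 CPM without it, and the 4 alpha-specific genes at 1017 to 1380.4 CPM in caffeine and 3510.9 to 3968.4 CPM without it. CPM are counts scaled to library size with TMM factors, which leave the level of a typical gene alike in all libraries. In the other strains the sums were 32.6 to 69.0 CPM in caffeine and 14 to 23.1 CPM without for the a-specific genes, and 1242 to 2045.2 CPM in caffeine and 2183.8 to 2446.3 CPM without for the alpha-specific genes. The part of mating-type genes in the results on autophagy genes was not tested. Counts scaled in this way cannot tell fewer cells or less RNA per cell apart from a lower share of the messenger RNA. Reads of all strains were matched to the transcripts of the reference strain, and the part of sequence differences between strains was not tested.

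In 3 libraries the levels of all 6400 genes tested were least like those of their own group. They are Y55 without caffeine replicate 2, with a mean correlation of 0.972 with its group, and YPS606 without caffeine replicate 3 and BY4742 in caffeine replicate 2, both with 0.973. The next library, Y55 without caffeine replicate 3, was at 0.975. Many results that turn on these libraries are given with and without them, a choice made after seeing the data. All libraries of Y55 and UWOPS87-2421 were close to each other: edgeR called only 4 of 6400 genes between these strains in each condition, the 4 genes of the 2-micron plasmid. Whether the libraries of these names came from closely related or mixed material was not tested, so a result seen in both is not shown to hold in 2 separate backgrounds.

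All 10 autophagy genes passed the filter on low counts, with between 50 (ATG14) and 4383 (ATG19) estimated counts per library. To compare genes with each other, the deposited TPM were used, which are corrected for transcript length. ATG8 had the highest level, with a mean of 82.3 TPM over the 24 libraries, and ranked first among the 10 genes in 20 libraries. ATG19 at 61.7 TPM and ATG5 at 57.6 TPM followed, and these 3 genes always took the first 3 ranks. Their order among themselves was not fixed, since ATG19 ranked first in 3 libraries and ATG5 in 1.

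The other 7 genes averaged less than the median over all transcripts and libraries, which was 33.1 TPM. ATG29 averaged 20.0 TPM and ATG13 18.7 TPM, and their ranges over libraries overlapped. ATG11 averaged 12.1 TPM but ranked between 4 and 10, which was the widest range of ranks among the 10 genes. ATG1 (9.08 TPM), ATG7 (8.28 TPM), ATG9 (7.30 TPM) and ATG14 (6.56 TPM) were the lowest, and the ranges of these neighbours overlapped as well.

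**Figure D1:**
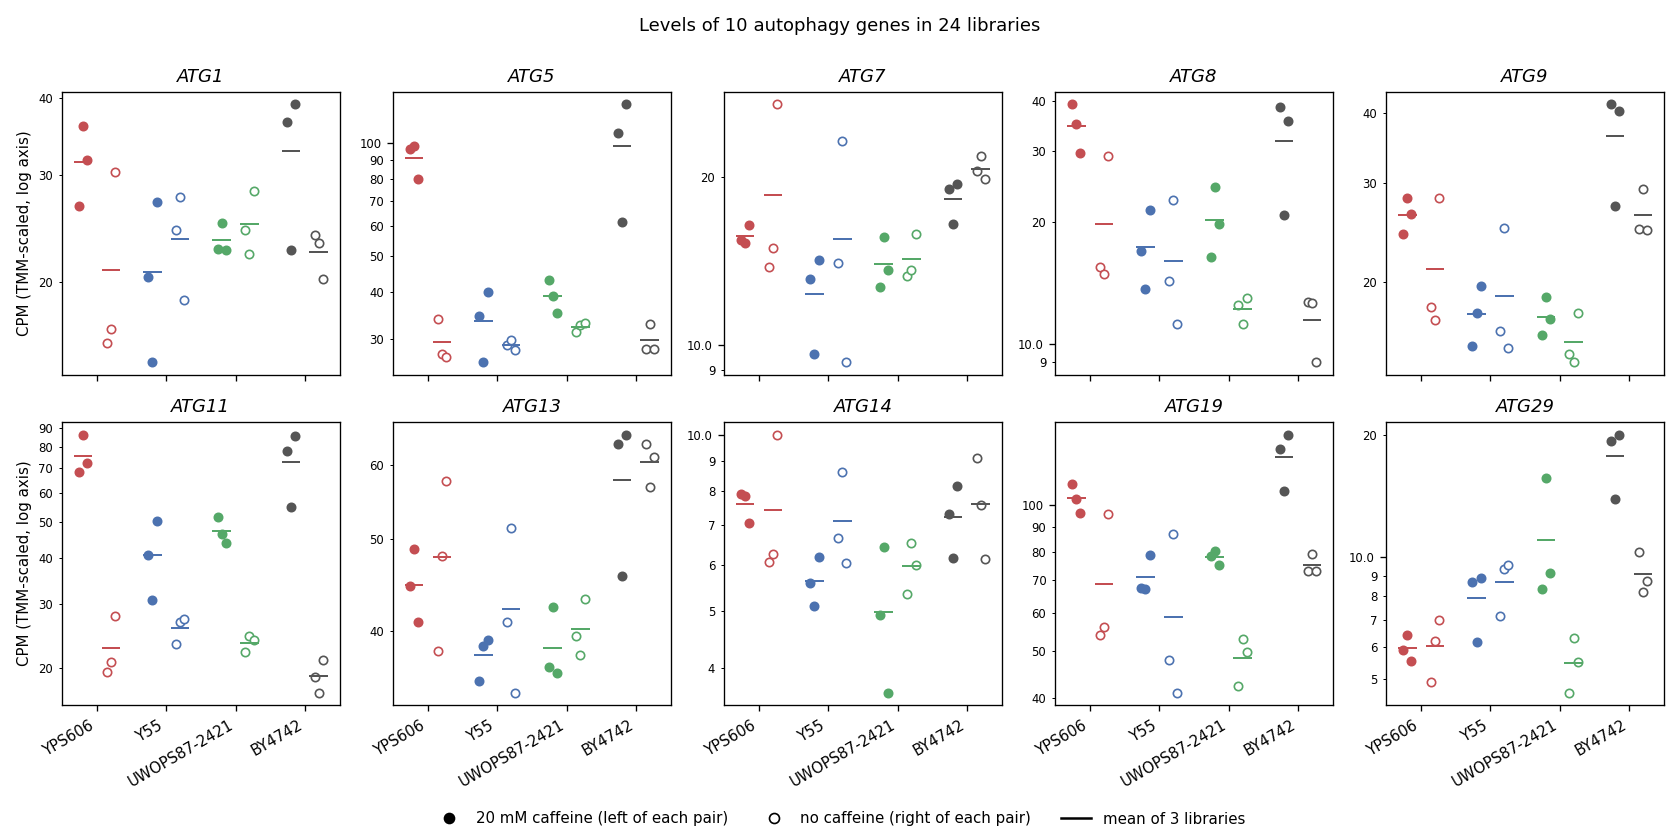
Level of each of the 10 autophagy genes in CPM on a log axis, in the 24 libraries, with filled points for 20 mM caffeine, open points for no caffeine and a line at the mean of 3 libraries. ATG5 stood at 61.7 to 126.6 CPM in caffeine in BY4742 and 79.9 to 98.2 CPM in YPS606, above all other libraries, whereas ATG13 showed no such separation by caffeine.

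Caffeine raised some of the 10 genes in every strain and lowered none past the threshold of an adjusted p of 0.05, whereas 20.0%, 5.77%, 13.0% and 25.0% of all genes tested were called lower in YPS606, Y55, UWOPS87-2421 and BY4742. In YPS606, 4 of the 10 genes rose (ATG5, ATG8, ATG11 and ATG19), where 20.5% of all genes tested were called higher. In Y55, 1 of the 10 genes rose (ATG11), against 8.64% of all genes. In UWOPS87-2421, 3 of the 10 genes rose (ATG11, ATG19 and ATG29), against 14.7% of all genes. In BY4742, 5 of the 10 genes rose (ATG5, ATG8, ATG11, ATG19 and ATG29), against 27.5% of all genes. The share of the 10 genes that rose was above the share of all genes in YPS606, UWOPS87-2421 and BY4742, while in Y55 it was a single gene. In YPS606 the count fell to 2 of 10 without replicate 1 or 2 of either condition or with only the YPS606 groups fitted. That is near the 20.5% of all genes in the fit of all 24 libraries, the only fit in which these shares were counted. In Y55 it fell to 0 without no caffeine replicate 1 or caffeine replicate 3 or with only the Y55 groups fitted.

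Over the 10 genes the median log2 fold change was 0.45 in YPS606, -0.11 in Y55, 0.21 in UWOPS87-2421 and 0.64 in BY4742. Over all genes tested it was between -0.01 and 0.03 in the 4 strains. Without the 3 libraries least like their groups, 6, 2, 4 and 7 of the 10 genes were called in YPS606, Y55, UWOPS87-2421 and BY4742, all of them higher in caffeine. The genes then added were ATG1 and ATG9 in YPS606, ATG19 in Y55, ATG8 in UWOPS87-2421, and ATG1 and ATG9 in BY4742. The share of all genes called was not counted without these libraries.

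ATG11, the scaffold that links cargo receptors to the autophagy machinery, was the only one of the 10 genes that rose in all 4 strains. In YPS606 it was at 68.5, 86.3 and 72.2 CPM in caffeine, against 19.6, 20.8 and 27.8 CPM without caffeine. In Y55 it was at 40.7, 30.6 and 50.4 CPM in caffeine, against 23.3, 26.8 and 27.3 CPM without. In UWOPS87-2421 it was at 51.6, 46.4 and 43.8 CPM in caffeine, against 22.1, 24.5 and 23.9 CPM without. In every one of these strains the lowest caffeine library was above the highest library without caffeine. BY4742 had 78.1, 54.8 and 85.5 CPM in caffeine, against 18.9, 17.2 and 21.1 CPM without, which again did not overlap.

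On the log2 scale ATG11 changed by 1.74 ± 0.18 in YPS606 (standard error, edgeR adjusted p = 3.65e-07). The change was 0.66 ± 0.18 in Y55 (adjusted p = 0.0156) and 1.01 ± 0.18 in UWOPS87-2421 (adjusted p = 0.000318). In BY4742 it was 1.94 ± 0.18 (adjusted p = 4.88e-08), a 3.83-fold difference and the largest of the 10 genes. The call in Y55 was the weak one. It was lost without Y55 no caffeine replicate 1 (edgeR adjusted p = 0.072) or without Y55 caffeine replicate 3 (adjusted p = 0.118), and when only the Y55 groups were fitted (adjusted p = 0.158).

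ATG5, whose product is joined to Atg12 in the complex that lipidates Atg8, differed most between strains in its response. In YPS606 it stood at 96.2, 98.2 and 79.9 CPM in caffeine, against 34.0, 27.4 and 26.9 CPM without. In BY4742 it stood at 106.0, 61.7 and 126.6 CPM in caffeine, against 28.3, 32.9 and 28.3 CPM without. Groups did not overlap in either strain, and the lowest caffeine value, 61.7 CPM, came from the BY4742 library least like its group. On the log2 scale the difference was 1.63 ± 0.19 in YPS606 (edgeR adjusted p = 1.86e-06) and 1.72 ± 0.19 in BY4742 (edgeR adjusted p = 5.07e-07), about 3.10-fold and 3.29-fold.

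In the other 2 strains ATG5 was not called. In Y55 it was at 34.6, 26.0 and 40.1 CPM in caffeine, against 28.9, 29.8 and 28.0 CPM without, and the groups overlapped. In UWOPS87-2421 it was at 43.0, 39.1 and 35.3 CPM in caffeine, against 31.3, 32.8 and 33.1 CPM without, which did not overlap. Neither difference passed the test, in Y55 (log2 fold change 0.22, 95% interval -0.15 to 0.60, edgeR adjusted p = 0.47) or in UWOPS87-2421 (0.27, 95% interval -0.10 to 0.64, edgeR adjusted p = 0.302). The UWOPS87-2421 difference was called when only its 2 groups were fitted (edgeR adjusted p = 0.0364).

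ATG8, whose product coats the growing membrane, rose in BY4742 and YPS606. In YPS606 it was at 39.2, 35.1 and 29.8 CPM in caffeine, against 15.5, 14.9 and 29.2 CPM without. The third of the libraries without caffeine, the YPS606 library least like its group, lay just under the lowest caffeine library. The levels in BY4742 were 38.7, 20.9 and 35.7 CPM in caffeine, against 12.7, 12.6 and 9.0 CPM without, with no overlap.

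ATG8 rose on the log2 scale by 0.81 ± 0.28 in YPS606 (edgeR adjusted p = 0.0261) and 1.48 ± 0.29 in BY4742 (edgeR adjusted p = 0.00025). The call in YPS606 was lost on leaving out any of 4 libraries, replicates 1 and 2 in caffeine and replicates 1 and 2 without, with adjusted p between 0.0586 and 0.117, and when only the YPS606 groups were fitted (0.0573). In UWOPS87-2421 the gene was at 16.4, 24.5 and 19.8 CPM in caffeine, against 12.5, 11.2 and 13 CPM without. Those groups did not overlap, but the log2 fold change of 0.72 ± 0.29 missed the threshold (edgeR adjusted p = 0.0646), which it passed with DESeq2 (0.0369) and with only these groups fitted (0.00415). In Y55 the levels overlapped, at 17.0, 13.7 and 21.5 CPM in caffeine and 14.3, 22.7 and 11.2 CPM without, and the log2 fold change was 0.11 ± 0.29 (adjusted p = 0.838).

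ATG19, the Cvt cargo receptor, rose in 3 strains. In YPS606 it was at 110.2, 102.9 and 96.1 CPM in caffeine, against 54.0, 56.1 and 95.7 CPM without. In UWOPS87-2421 it was at 78.4, 80.4 and 75.2 CPM in caffeine, against 42.3, 52.9 and 49.9 CPM without. BY4742 libraries had 130.0, 106.8 and 139.5 CPM in caffeine, against 73.2, 79.4 and 73.2 CPM without. The groups did not overlap in any of these 3 strains, although YPS606 without caffeine replicate 3 came within 1 CPM of doing so.

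ATG19 rose on the log2 scale by 0.59 ± 0.22 in YPS606 (edgeR adjusted p = 0.0365), 0.69 ± 0.22 in UWOPS87-2421 (0.0243) and 0.74 ± 0.22 in BY4742 (0.0076). The YPS606 call was lost without caffeine replicate 1 or 2 or without no caffeine replicate 1 or 2 (edgeR adjusted p between 0.0739 and 0.158), when only the YPS606 groups were fitted (0.0781), and the change was 0.90 without no caffeine replicate 3. The UWOPS87-2421 call was lost without caffeine replicate 1 or 2 or without no caffeine replicate 1 or 3 (adjusted p between 0.0588 and 0.106). In Y55 the gene was at 67.3, 67.0 and 79.0 CPM in caffeine, against 48.0, 87.1 and 41.1 CPM without. The high value of 87.1 CPM is the Y55 library least like its group, and the log2 fold change was 0.27 ± 0.22 with it (edgeR adjusted p = 0.444) and 0.66 without it (adjusted p = 0.0243).

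ATG29, a subunit of the scaffold on which Atg1 and Atg13 assemble, rose in UWOPS87-2421 and BY4742. In UWOPS87-2421 it was at 8.32, 15.6 and 9.14 CPM in caffeine, against 4.64, 6.31 and 5.52 CPM without. In BY4742 it was at 19.3, 13.9 and 20.0 CPM in caffeine, against 10.3, 8.22 and 8.75 CPM without. Neither pair of groups overlapped. ATG29 changed on the log2 scale by 1.0 ± 0.23 in UWOPS87-2421 (edgeR adjusted p = 0.00296) and 0.96 ± 0.22 in BY4742 (edgeR adjusted p = 0.00115).

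In YPS606 the level of ATG29 was low in both conditions, at 5.92, 6.43 and 5.56 CPM in caffeine and 4.92, 6.20 and 7.01 CPM without, and the log2 fold change was -0.01 (95% interval -0.46 to 0.43). In Y55 it was at 8.67, 6.16 and 8.88 CPM in caffeine, against 7.15, 9.33 and 9.53 CPM without, a log2 fold change of -0.11 (95% interval -0.56 to 0.33). Neither difference passed the test (edgeR adjusted p = 0.975 and 0.789). The end of ATG29 overlaps the gene SET6 on the opposite strand by 24 bases, and no setting for strand is stated for the counting. SET6 had a log2 fold change in caffeine of 0.90 in UWOPS87-2421 (edgeR adjusted p = 0.00718) and 0.96 in BY4742 (adjusted p = 0.00146). The estimated counts of ATG29 were whole numbers in all 24 libraries. Whether reads of SET6 transcripts counted for ATG29 was not tested.

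ATG1, the kinase that starts autophagy, did not pass the test for caffeine in any strain, though it was close to it in 2. In YPS606 it was at 26.7, 36.0 and 31.7 CPM in caffeine, against 15.9, 16.8 and 30.3 CPM without, and the difference on the log2 scale was 0.58 ± 0.24 (edgeR adjusted p = 0.061). In BY4742 it was at 36.6, 22.6 and 39.1 CPM in caffeine, against 23.9, 23.2 and 20.3 CPM without, where it was 0.55 ± 0.24 (edgeR adjusted p = 0.064). In each strain a single library crossed into the other group, namely YPS606 without caffeine replicate 3 and BY4742 in caffeine replicate 2. Without that library the log2 fold change was 0.94 in YPS606 (edgeR adjusted p = 0.00285) and 0.75 in BY4742 (adjusted p = 0.0141). DESeq2 called it in YPS606 with all libraries (adjusted p = 0.0416). In Y55 and UWOPS87-2421 the log2 fold changes were -0.18 and -0.09, and the groups overlapped.

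ATG9, the only membrane-spanning protein among the core autophagy proteins, was not called in any strain either. In BY4742 it was at 41.4, 27.3 and 40.3 CPM in caffeine, against 24.9, 29.3 and 24.8 CPM without, which differed by 0.47 ± 0.20 on the log2 scale (edgeR adjusted p = 0.052 and DESeq2 adjusted p = 0.0458). Leaving out BY4742 in caffeine replicate 2 gave 0.63 (edgeR adjusted p = 0.0115), and leaving out no caffeine replicate 2 gave 0.58 (adjusted p = 0.0438). In YPS606 it was at 24.4, 28.2 and 26.4 CPM in caffeine, against 18.1, 17.1 and 28.2 CPM without. The difference there was 0.32 ± 0.20 (edgeR adjusted p = 0.216) and reached 0.58 without no caffeine replicate 3 (adjusted p = 0.0203). It was -0.11 in Y55 and 0.15 in UWOPS87-2421, with overlapping groups.

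ATG13, ATG7 and ATG14 were not called for caffeine in any strain. ATG13, the target through which TORC1 restrains Atg1, had log2 fold changes between -0.17 and -0.06. Its 95% intervals ran from -0.40 to 0.20 in YPS606, -0.47 to 0.13 in Y55, -0.36 to 0.24 in UWOPS87-2421 and -0.36 to 0.24 in BY4742. An increase of the size seen for ATG11 therefore lay outside all 4 intervals.

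ATG7 had log2 fold changes between -0.34 (Y55) and -0.03 (UWOPS87-2421). In BY4742 its 3 caffeine libraries, at 19, 16.5 and 19.4 CPM, lay under the 3 without caffeine, at 20.5, 21.8 and 19.8 CPM, but the difference was small beside its error (-0.18 ± 0.25, edgeR adjusted p = 0.571). ATG14 had log2 fold changes between -0.34 (Y55) and 0.03 (YPS606). It had the lowest count of a single library, and its groups overlapped in every strain. Its level was 3.63 to 8.18 CPM in caffeine and 5.35 to 10 CPM without, over all strains.

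**Figure D2:**
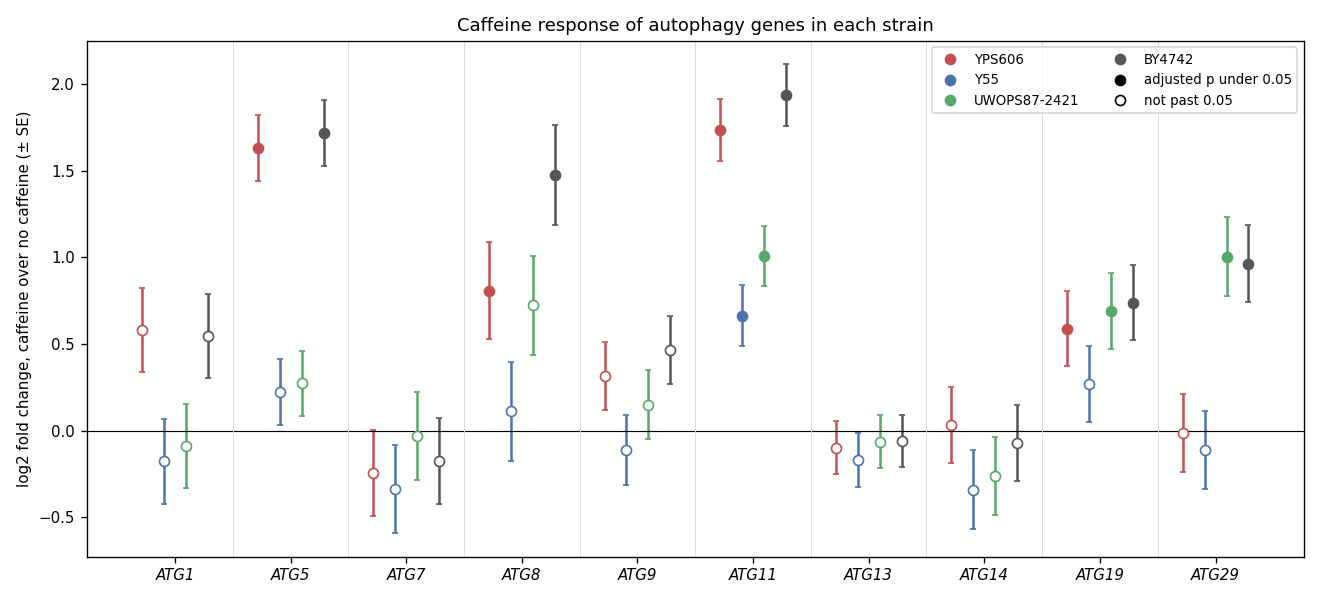
Log2 fold change of each of the 10 autophagy genes, 20 mM caffeine over no caffeine, in the 4 strains, with bars of 1 standard error and filled points where the edgeR adjusted p was under 0.05. ATG11 was called in all 4 strains (0.66 to 1.94), ATG5 in YPS606 and BY4742 (1.63 and 1.72), and ATG7, ATG13 and ATG14 in none.

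Whether the response to caffeine itself differed between strains was tested as an interaction. Against BY4742, the response differed for 1 of the 10 genes in YPS606, where 12.8% of all genes were called, for 4 in Y55 (29.1% of all genes) and for 2 in UWOPS87-2421 (22.2% of all genes). All 7 differences were towards a smaller response than in BY4742. The counts in YPS606 and UWOPS87-2421 were not above the shares of all genes. How many of all genes differed in each direction was not counted. Since the 3 comparisons share the 6 BY4742 libraries, they are not independent of each other. Without the 3 libraries least like their groups the counts were 1, 6 and 5, with no share of all genes counted in that fit.

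For ATG5 the log2 response was lower in Y55 than in BY4742 (difference -1.49 ± 0.27, edgeR adjusted p = 0.000523). In UWOPS87-2421 the difference from BY4742 was -1.44 ± 0.27 (adjusted p = 0.000946). YPS606 did not differ by the test, and the 95% interval of its difference from BY4742 ran from -0.60 to 0.43 (edgeR adjusted p = 0.883). Set directly against the other strains, in comparisons added after seeing the data, the ATG5 response of YPS606 was larger than that of Y55 by 1.41 ± 0.27 (edgeR adjusted p = 0.00311) and than that of UWOPS87-2421 by 1.36 ± 0.27 (adjusted p = 0.00544). The calls for ATG5 in all 4 of these differences held in every alternative that was run.

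For ATG11 the response differed from BY4742 by -1.27 ± 0.25 in Y55 (edgeR adjusted p = 0.001) and by -0.93 ± 0.25 in UWOPS87-2421 (adjusted p = 0.0115). The 95% interval for YPS606 against BY4742 was -0.68 to 0.28 (edgeR adjusted p = 0.635). The response of YPS606 exceeded that of Y55 by 1.07 ± 0.25 (edgeR adjusted p = 0.0138), which missed the threshold when only these 4 groups were fitted (adjusted p = 0.0607). It exceeded that of UWOPS87-2421 by 0.73 ± 0.25, which was not called (edgeR adjusted p = 0.11), though it was without YPS606 no caffeine replicate 3 (adjusted p = 0.032) and when only the 4 groups were fitted (adjusted p = 0.0446). In these 2 added comparisons 2 and 1 of the 10 genes were called, against 5.14% and 4.03% of all genes.

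ATG8 responded less in Y55 than in BY4742, with a difference of -1.37 ± 0.40 on the log2 scale (edgeR adjusted p = 0.0157). Without Y55 no caffeine replicate 2, the library least like its group, the difference was -1.07 and missed the threshold (adjusted p = 0.0531). ATG29 responded less than in BY4742 in Y55, with a difference of -1.08 ± 0.32 (edgeR adjusted p = 0.0157), and in YPS606, with -0.98 ± 0.32 (adjusted p = 0.0473). The YPS606 difference was a borderline one. It was lost on leaving out 10 of the 12 libraries one at a time, that is any of them except BY4742 in caffeine replicate 2 and YPS606 without caffeine replicate 1, with edgeR adjusted p between 0.0551 and 0.117, and with RLE size factors (0.055). For the overlapping SET6 the same differences were -0.60 in Y55 (edgeR adjusted p = 0.175) and -0.78 in YPS606 (adjusted p = 0.117). ATG19 did not differ from BY4742 by the test in any strain, with 95% intervals of -0.75 to 0.45 in YPS606, -1.07 to 0.14 in Y55 and -0.65 to 0.55 in UWOPS87-2421.

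In caffeine, most of the 10 genes were called lower than in BY4742 in Y55 and UWOPS87-2421 but not in YPS606. In YPS606, 1 of the 10 genes was called lower than in BY4742, where 22.0% of all genes were called lower. Only 3 of the 10 had a positive log2 fold change there, so most lay below BY4742 without being called. In Y55, 8 of the 10 genes were called lower, against 28.7% of all genes, and in UWOPS87-2421 7 of the 10, against 26.4% of all genes. None was called higher, against 24.5%, 30.4% and 28.1% of all genes in the 3 strains. The median log2 fold change of the 10 genes was -0.16 in YPS606, -0.83 in Y55 and -0.64 in UWOPS87-2421, against -0.01, 0.00 and -0.01 over all genes. Without the 3 libraries least like their groups 5, 9 and 10 of the 10 genes were called. The share of all genes was not counted in that fit, so these counts have no background beside them.

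ATG29 was the gene called in all 3 strains. In caffeine it averaged 5.97 ± 0.44 CPM in YPS606, 7.90 ± 1.51 CPM in Y55, 11 ± 4.01 CPM in UWOPS87-2421 and 17.7 ± 3.32 CPM in BY4742 (SD, n = 3 each). Against BY4742 the log2 fold change was -1.57 ± 0.23 in YPS606 (edgeR adjusted p = 9.33e-06) and -1.15 ± 0.22 in Y55 (adjusted p = 0.000189). In UWOPS87-2421 it was -0.69 ± 0.22 (edgeR adjusted p = 0.0117), a call that was lost without caffeine replicate 1 or 3 of UWOPS87-2421 or without BY4742 caffeine replicate 3 (adjusted p between 0.053 and 0.0729) or when only these groups were fitted (0.0516). SET6 was lower as well, with log2 fold changes of -1.22 in YPS606 (adjusted p = 0.000191), -0.95 in Y55 (0.0013) and -0.83 in UWOPS87-2421 (0.00427).

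ATG5 in caffeine averaged 33.6 ± 7.12 CPM in Y55 and 39.2 ± 3.83 CPM in UWOPS87-2421, against 98.1 ± 33.2 CPM in BY4742 (SD, n = 3 each). On the log2 scale the differences were -1.54 ± 0.19 in Y55 (edgeR adjusted p = 1.01e-06) and -1.33 ± 0.19 in UWOPS87-2421 (edgeR adjusted p = 6.86e-06). In YPS606 ATG5 was at 79.9 to 98.2 CPM, and its difference from BY4742 was -0.10 ± 0.18 (edgeR adjusted p = 0.672). ATG9 averaged 17.6 ± 2.15 CPM in Y55 and 17.4 ± 1.39 CPM in UWOPS87-2421, against 36.3 ± 7.87 CPM in BY4742. Its log2 fold changes were -1.05 and -1.07, each with a standard error of 0.20 (edgeR adjusted p = 0.000157 and 0.000146).

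The scaffold gene ATG11 was lower than in BY4742, with log2 fold changes of -0.84 in Y55 (edgeR adjusted p = 0.000345) and -0.63 in UWOPS87-2421 (0.00442). ATG13 was at -0.62 in Y55 (edgeR adjusted p = 0.00171) and -0.59 in UWOPS87-2421 (0.00266). ATG19 was at -0.82 (edgeR adjusted p = 0.00316) and -0.69 (0.0114) in these strains. These 3 genes kept their calls in caffeine whichever library was left out.

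The remaining calls in caffeine were less firm. ATG1 was lower in Y55 (log2 fold change -0.65, edgeR adjusted p = 0.0268), a call lost without Y55 caffeine replicate 2 or BY4742 caffeine replicate 1 or 3 (adjusted p between 0.0899 and 0.128), or with only these groups fitted (0.0723). ATG8 was lower in Y55 (-0.86, edgeR adjusted p = 0.0124), lost without Y55 caffeine replicate 2 (adjusted p = 0.0567) or BY4742 caffeine replicate 1 (adjusted p = 0.0644). ATG14 was lower in UWOPS87-2421 (-0.54, edgeR adjusted p = 0.044), lost without caffeine replicate 1 or 3 of either strain (adjusted p between 0.0887 and 0.22) or with only these groups fitted (0.0823). ATG7 was not called in any strain (lowest edgeR adjusted p = 0.0618, in Y55), though DESeq2 called it in Y55 (-0.59, adjusted p = 0.0393). ATG8 in UWOPS87-2421 was just outside the threshold (-0.66, edgeR adjusted p = 0.0523) and inside it with DESeq2 (adjusted p = 0.0327). In YPS606, ATG9 (-0.47, edgeR adjusted p = 0.0569) and ATG13 (-0.37, adjusted p = 0.0504) were just outside the threshold, and both passed it without BY4742 caffeine replicate 2 (0.0125 and 0.00829) and with DESeq2 (0.0336 and 0.0284).

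Without caffeine fewer of the 10 genes were called against BY4742 in Y55 and UWOPS87-2421. In YPS606, 1 of the 10 genes was higher, against 21.0% of all genes, and 1 was lower, against 17.1% of all genes. In Y55, 1 of the 10 was lower, against 13.9% of all genes, and in UWOPS87-2421, 4 of the 10 were lower, against 15.8% of all genes. None was higher in these 2 strains, against 20.0% and 20.8% of all genes. The median log2 fold change of the 10 genes was -0.12 in YPS606, -0.08 in Y55 and -0.45 in UWOPS87-2421, against 0.03 to 0.04 over all genes. Without the 3 libraries least like their groups 5, 4 and 5 of the 10 genes were called, again with no share of all genes counted in that fit.

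ATG13 without caffeine was at 40.9, 51.4 and 34.4 CPM in Y55 and 39.5, 37.7 and 43.2 CPM in UWOPS87-2421, against 63.1, 56.8 and 61.2 CPM in BY4742. Neither strain overlapped BY4742. The difference on the log2 scale was -0.51 ± 0.15 in Y55 (edgeR adjusted p = 0.0137), lost without Y55 no caffeine replicate 3 (adjusted p = 0.0632), and -0.59 ± 0.15 in UWOPS87-2421 (adjusted p = 0.00466). In both strains it was lower than in BY4742 with caffeine as well as without. In YPS606 it was at 38.1, 48.0 and 57.7 CPM without caffeine, and its log2 fold change of -0.33 was not called (edgeR adjusted p = 0.092). It was called when YPS606 replicate 3 was left out (-0.49, edgeR adjusted p = 0.0182) and by DESeq2 with all libraries (-0.38, adjusted p = 0.0447).

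ATG9 without caffeine was at 14.9, 14.4 and 17.6 CPM in UWOPS87-2421, against 24.9, 29.3 and 24.8 CPM in BY4742, which differed by -0.75 ± 0.20 on the log2 scale (edgeR adjusted p = 0.00568). In Y55 it was at 16.4, 25.0 and 15.3 CPM, where the high value is replicate 2. It differed from BY4742 by -0.47 ± 0.20 on the log2 scale with that library (edgeR adjusted p = 0.0769) and -0.76 without it (adjusted p = 0.00716). ATG7 and ATG19 were also highest in that library among the 3, and were called lower than in BY4742 only without it (-0.84, edgeR adjusted p = 0.0107, and -0.78, adjusted p = 0.00309).

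ATG19 without caffeine was lower in UWOPS87-2421 than in BY4742, at 48.3 ± 5.48 against 75.2 ± 3.56 CPM (SD, n = 3 each). The difference on the log2 scale was -0.64 ± 0.22 (edgeR adjusted p = 0.027). The call was lost without UWOPS87-2421 no caffeine replicate 1 (adjusted p = 0.0971) or BY4742 no caffeine replicate 2 (adjusted p = 0.0686). ATG29 without caffeine averaged 6.04 ± 1.05 CPM in YPS606 and 5.49 ± 0.84 CPM in UWOPS87-2421, against 9.10 ± 1.10 CPM in BY4742. Its log2 fold changes were -0.59 ± 0.23 in YPS606 (edgeR adjusted p = 0.0448) and -0.73 ± 0.23 in UWOPS87-2421 (adjusted p = 0.0164). The YPS606 call was lost without no caffeine replicate 1 or 2 of YPS606 or replicate 1 or 3 of BY4742 (adjusted p between 0.0672 and 0.166). The UWOPS87-2421 call was lost without no caffeine replicate 1 of either strain (adjusted p between 0.0623 and 0.0721).

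ATG8 was the one gene higher than in BY4742 without caffeine, in YPS606, by 0.79 ± 0.29 on the log2 scale (edgeR adjusted p = 0.0346). The values were 15.5, 14.9 and 29.2 CPM in YPS606, against 12.7, 12.6 and 9.0 CPM in BY4742. Without YPS606 replicate 3 the change was 0.40 (edgeR adjusted p = 0.257), and leaving out any 1 of the 3 BY4742 libraries also ended the call (adjusted p between 0.0608 and 0.15), as did fitting only these groups (0.0969). ATG5 and ATG11, the genes with the largest responses, were not called between any strain and BY4742 without caffeine. Their log2 fold changes lay between -0.05 and 0.12 for ATG5 and between 0.26 and 0.43 for ATG11. ATG11 did not overlap BY4742 in Y55 (edgeR adjusted p = 0.0671) or UWOPS87-2421 (adjusted p = 0.198), and was called in UWOPS87-2421 with only these groups fitted (0.28, adjusted p = 0.0291).

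**Figure D3:**
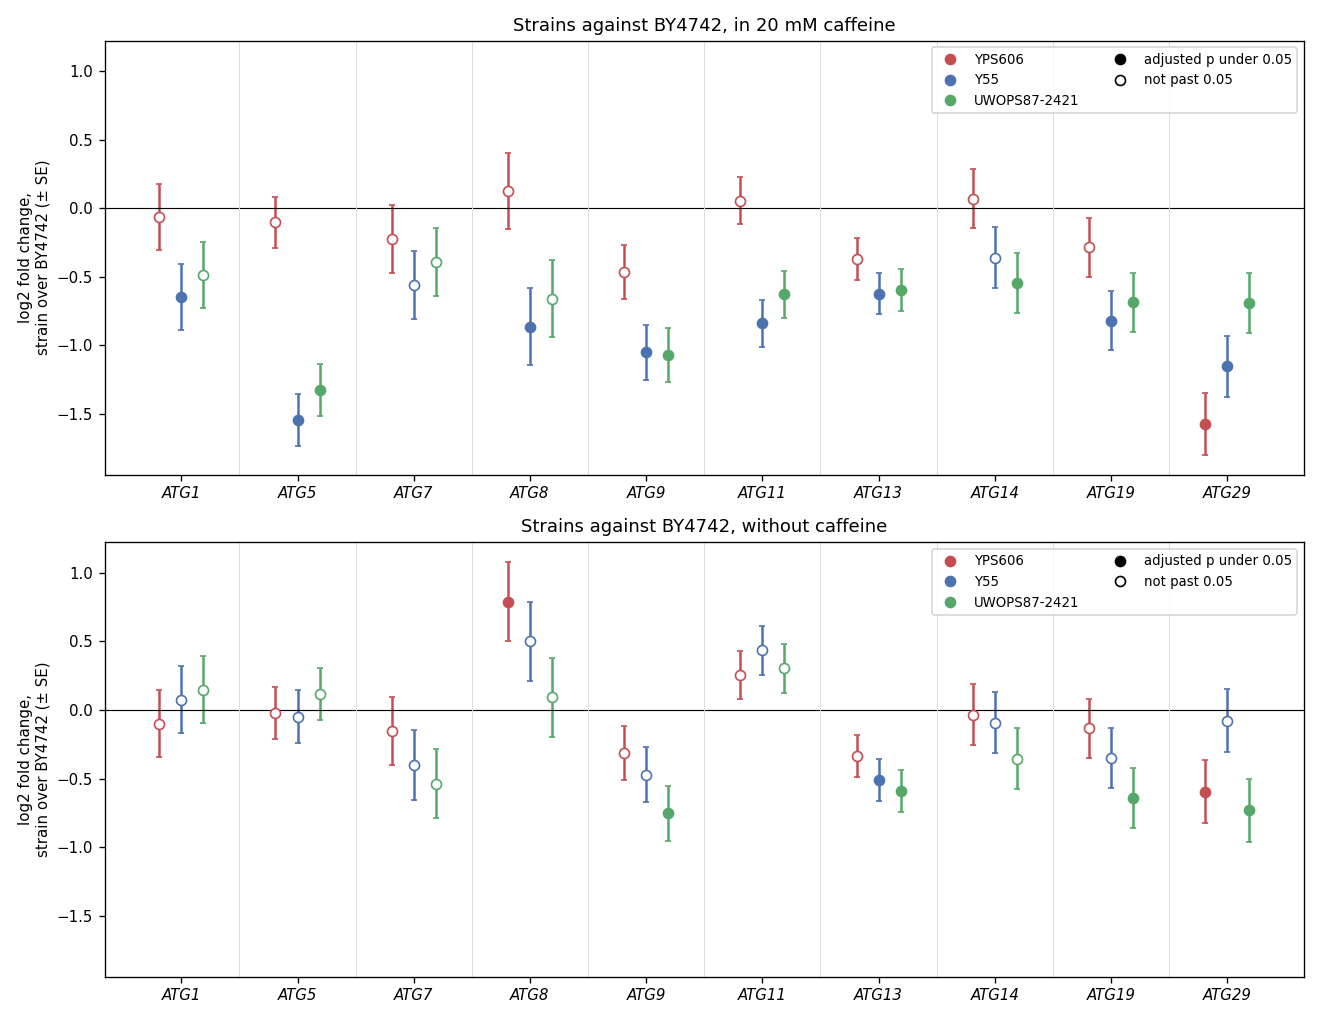
Log2 fold change of each of the 10 autophagy genes in YPS606, Y55 and UWOPS87-2421 over BY4742, in 20 mM caffeine (upper panel) and without caffeine (lower panel), with bars of 1 standard error and filled points where the edgeR adjusted p was under 0.05. In caffeine 1, 8 and 7 of the 10 genes were called, all lower than in BY4742, and without caffeine 2, 1 and 4.

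Y55 and UWOPS87-2421 were not told apart by any of the 10 genes, against 0.0625% of all genes in either condition. The log2 fold changes of Y55 over UWOPS87-2421 ran from -0.46 to 0.19 in caffeine, with 0 of the 10 genes at an unadjusted edgeR p under 0.05, as against 124 of all genes. Without caffeine they ran from -0.16 to 0.65, with 1 of the 10 genes under 0.05 (ATG29, with an edgeR adjusted p of 0.972), as against 245 of all genes. DESeq2 also called 0 of the 10 genes in both conditions. The caffeine responses of Y55 and UWOPS87-2421 were not tested against each other. ATG19 and ATG29, called for caffeine in UWOPS87-2421 but not in Y55, are thus not shown to respond differently in these strains.

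The other genes of the pathway, taken as a list of 29, were called in both directions in caffeine, more often higher than lower. In YPS606 8 of the 29 rose and 3 fell, in Y55 2 rose and 1 fell, in UWOPS87-2421 4 rose and 1 fell, and in BY4742 13 rose and 2 fell. Without the 3 libraries least like their groups 13, 7, 8 and 15 rose in these strains, and with single libraries left out 6 to 11, 0 to 2, 4 and 11 to 12. The share of all genes was not counted in these fits. The count of 0 in Y55 came without Y55 caffeine replicate 3, and with only the Y55 groups fitted it was also 0. The list's median log2 fold change was -0.02, -0.11, 0.01 and 0.33 in these strains. With all libraries, 20.5%, 8.64%, 14.7% and 27.5% of all genes rose, and 20.0%, 5.77%, 13.0% and 25.0% fell. The rises in Y55 and UWOPS87-2421 were thus near the share of all genes, and the falls were under it in every strain. ATG22, an exporter of amino acids from the vacuole, rose in every strain, by 1.04 on the log2 scale in YPS606 (edgeR adjusted p = 0.000416), 0.83 in Y55 (0.00848), 1.07 in UWOPS87-2421 (0.000597) and 0.88 in BY4742 (0.00101). ATG27, a membrane protein that helps Atg9 vesicles to form, fell in every strain, with log2 fold changes of -0.67 (edgeR adjusted p = 2.56e-06), -0.40 (0.0021), -0.51 (0.000123) and -1.03 (6.47e-09). The ATG22 call in Y55 was lost without Y55 caffeine replicate 3 (edgeR adjusted p = 0.0519). With only the Y55 groups fitted, neither gene was called there.

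In BY4742 the genes of this list with the largest rises were ATG32, the mitophagy receptor (1.30, edgeR adjusted p = 0.000106), ATG15, the lipase that opens autophagic bodies in the vacuole (1.22, 2.28e-07), and ATG34, a receptor related to ATG19 (1.18, 0.00047). In YPS606 they were ATG41 (1.12, edgeR adjusted p = 0.0052), ATG22 and ATG15 (1.02, 4.23e-06). ATG34 also rose in YPS606 (0.88, edgeR adjusted p = 0.00838), and ATG41 in BY4742 (0.83, 0.0209). ATG17, which forms a scaffold with ATG29, fell in YPS606 (-0.68, edgeR adjusted p = 0.000623) and BY4742 (-0.56, 0.0017). VPS15, a subunit of the lipid kinase that ATG14 directs, fell in YPS606 (-0.51, edgeR adjusted p = 0.00334). In UWOPS87-2421 ATG34 (0.87, edgeR adjusted p = 0.0119) and ATG23, which acts with ATG9 (0.68, 0.000545), rose beside ATG22. ATG23 rose in YPS606 as well (0.91, edgeR adjusted p = 1.39e-05), and was called in Y55 too (0.45, 0.0199). The Y55 call was lost without Y55 caffeine replicate 3 or no caffeine replicate 2 (highest edgeR adjusted p = 0.121).

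Of 6 genes for Cvt cargo and vacuolar proteases, 2 rose in YPS606, 0 in Y55, 2 in UWOPS87-2421 and 4 in BY4742, and none fell. Over all genes 20.5%, 8.64%, 14.7% and 27.5% were called higher and 20.0%, 5.77%, 13.0% and 25.0% lower in these strains. With single libraries left out, 1 to 3, 0, 0 and 3 to 4 rose. Without the 3 libraries least like their groups, 5 rose in YPS606 and 3 in Y55, so the 0 in Y55 did not hold in that fit. The share of all genes was not counted there, nor with single libraries left out. The list's median log2 fold change was 0.21, 0.14, 0.59 and 0.86 in these strains. PRB1, vacuolar proteinase B, rose by 1.48 in YPS606 (edgeR adjusted p = 0.0184) and by 2.34 in BY4742 (0.000523). The cargo enzyme AMS1, which ATG19 carries, rose by 1.37 in YPS606 (edgeR adjusted p = 0.00445), 0.96 in UWOPS87-2421 (0.0487) and 2.08 in BY4742 (7.97e-05). APE1, the main Cvt cargo, rose by 0.96 in UWOPS87-2421 (edgeR adjusted p = 0.045) and 0.89 in BY4742 (0.0344). The PRB1 call in YPS606 was lost without no caffeine replicate 1 or 2 (highest edgeR adjusted p = 0.0878). Both UWOPS87-2421 calls were lost without any 1 of the 6 libraries (highest adjusted p = 0.132 for AMS1 and 0.137 for APE1), and the APE1 call in BY4742 without any but caffeine replicate 2 (highest adjusted p = 0.11).

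Among 15 regulators, 5 rose and 3 fell in YPS606, 1 rose and 0 fell in Y55, 4 rose and 2 fell in UWOPS87-2421, and 8 rose and 2 fell in BY4742. Beside the same shares of all genes, the counts that fell in YPS606, rose in Y55 and fell in UWOPS87-2421 were near that background. The 5 of 15 that rose in YPS606 stood against 20.5% of all genes, and the 2 of 15 that fell in BY4742 against 25.0%. Whether the counts differ from these shares was not tested. With single libraries left out, 4 to 5, 1, 1 to 3 and 6 to 9 rose. Without the 3 libraries least like their groups, 6 rose in YPS606, 2 in Y55 and 6 in UWOPS87-2421. Shares of all genes were not counted in these fits. The list's median log2 fold change was 0.13, 0.04, 0.10 and 0.24. GAT1, a GATA activator of nitrogen-regulated genes, rose in all 4 strains, by 1.93 in YPS606 (edgeR adjusted p = 6.81e-09), 0.79 in Y55 (0.000691), 1.25 in UWOPS87-2421 (3.02e-06) and 1.16 in BY4742 (9.53e-07), and kept each call whichever library was left out. RPH1, a repressor of ATG genes in growing cells, rose by 0.86 in YPS606 (edgeR adjusted p = 0.000274), 0.54 in UWOPS87-2421 (0.0154) and 0.81 in BY4742 (0.000253).

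Of the Ume6 repressor and its partners, some fell. UME6 had log2 fold changes of -0.45 in YPS606 (edgeR adjusted p = 0.00803), -0.46 in UWOPS87-2421 (0.0114) and -0.43 in BY4742 (0.00808). PHO23, a subunit of the Rpd3 histone deacetylase complex, was at -0.60 in YPS606 (edgeR adjusted p = 0.00171), -0.48 in UWOPS87-2421 (0.0133) and -0.62 in BY4742 (0.000837), and SIN3, of the same complex, at -0.51 in YPS606 (0.000731). SIN3 was not called in BY4742 (0.24, edgeR adjusted p = 0.0571) or the other strains, the deacetylase gene RPD3 was called in no strain (-0.13 to 0.05), and none of these 4 genes was called in Y55. LST8, a TORC1 subunit, rose in BY4742 (1.03, edgeR adjusted p = 4.15e-07) and YPS606 (0.35, 0.016). KOG1, another, rose in UWOPS87-2421 (0.32, edgeR adjusted p = 0.0264) and BY4742 (0.26, 0.0423). Of the other TOR genes listed, TOR1 (0.41, edgeR adjusted p = 0.00897) and TCO89 (0.29, 0.00625) also rose in BY4742. TOR2 was not called there (0.02, edgeR adjusted p = 0.855). The GATA factor GLN3 rose in BY4742 (0.63, edgeR adjusted p = 0.00121) and YPS606 (0.57, 0.00431), though in YPS606 not with only the YPS606 groups fitted. In UWOPS87-2421 the calls depended on single libraries. That of RPH1 was lost without replicate 1 or 3 of either condition (highest edgeR adjusted p = 0.0594), and that of KOG1 without caffeine replicate 1 or 3 or no caffeine replicate 1 or 2 (highest adjusted p = 0.129). That of PHO23 was lost without replicate 1 of either condition (highest edgeR adjusted p = 0.0748), and that of UME6 without caffeine replicate 2 (adjusted p = 0.0503).

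**Figure D4:**
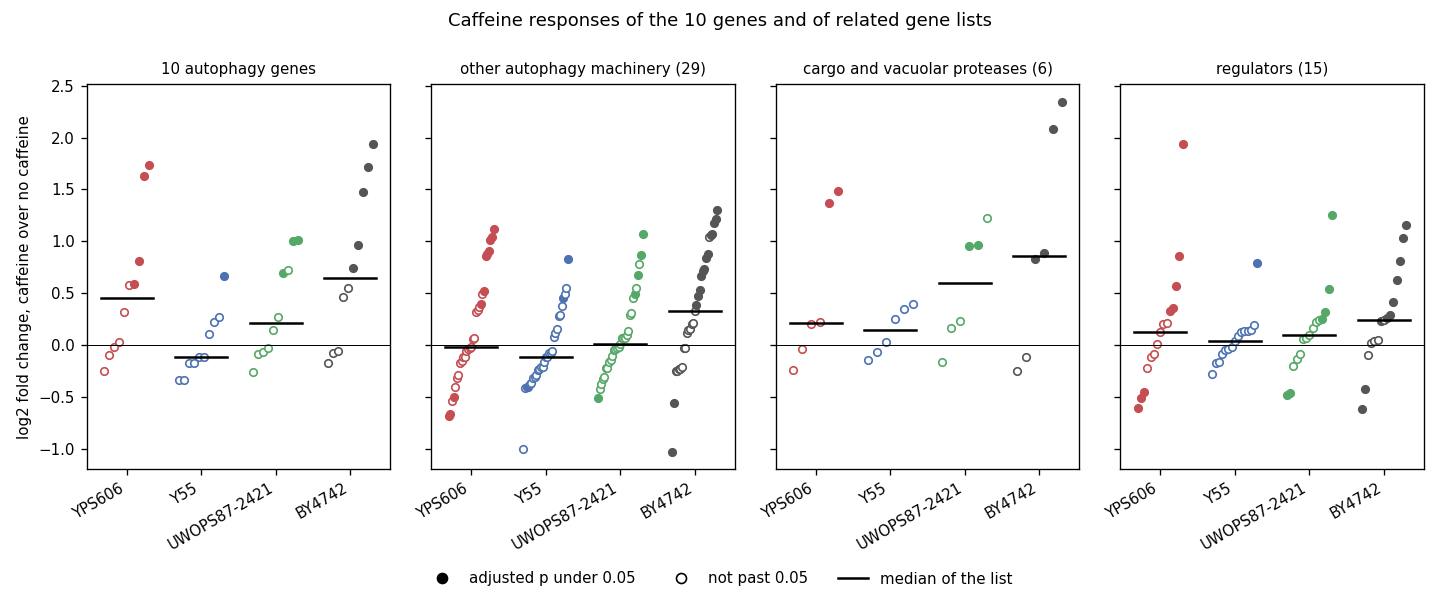
Log2 fold change in caffeine over no caffeine of each gene of 4 lists in the 4 strains, sorted within a strain, with filled points where the edgeR adjusted p was under 0.05 and a line at the list's median. The median of the 10 autophagy genes was 0.45 in YPS606, -0.11 in Y55, 0.21 in UWOPS87-2421 and 0.64 in BY4742, and that of the other autophagy machinery -0.02, -0.11, 0.01 and 0.33.

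Over the 24 libraries the 10 genes did not form one pattern. The log2 CPM of ATG5 and ATG11 were most alike of all pairs, with a Pearson correlation of 0.88 over 24 libraries that share strains and conditions, and those of ATG7 and ATG11 least, with -0.04. ATG29 was called in 7 of the 10 comparisons of caffeine and of strains with BY4742, and ATG11 in 6, the most among the 10 genes (ATG19 was also called in 6, with a smaller median change). The genes outside the 10 with a pattern most like that of ATG11 were YOR338W and NGL3 (correlation 0.97 each), CHS1 (0.97), DAS1 (0.96) and SHE4 (0.96). For ATG29 they were PAU23 (correlation 0.90), the overlapping SET6 (0.88), TGL5 (0.85), YNL054W-B (0.85) and STE13 (0.85).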

How the data were processed

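Total RNA was made into poly(A) libraries with a stranded kit and read as single-end reads. Per the labels and methods, the authors trimmed the reads with Trimmomatic 0.36 and pseudo-aligned them with kallisto 0.44.0 to the reference transcripts (R64). The deposited estimated counts, summed by kallisto per transcript, were rounded to whole numbers here. The deposited TPM, which the authors' kallisto run scaled per library by effective length, served only to order genes. Deposited effective lengths, in bases, entered 1 alternative. The authors also deposited 6 tables of DESeq2 fold changes and p-values, not used here.

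edgeR 4.0.16 (limma 3.58.1, R 4.3.3) kept 6400 of 6713 transcripts by its filter on low counts over the 8 groups. One quasi-likelihood fit of all 24 libraries had TMM factors and 1 coefficient per group. p-values were adjusted by Benjamini-Hochberg over all genes of a comparison, with a threshold of 0.05. A standard error is the log2 fold change divided by the root of the F statistic, and 95% intervals span 1.96 of these. CPM are TMM-scaled. The method was tested on simulated data. These had the same spread for every gene and no atypical libraries, and no result rests on them. With 3 libraries per group, permuting labels exactly gives no two-sided p under 0.1.

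The 15 planned and 2 added comparisons were repeated with DESeq2 1.42.0, RLE size factors, no filter, length offsets, only the groups compared, each library left out, and the 3 least typical libraries left out. Gene names came from the R64 table (6026 of 6713 identifiers matched). All 10 genes are named, and of each list up to 3 called genes of largest change in each direction and strain for caffeine. Some partners of a named gene are named as well. A gene not named for a strain can still be called there. The members and lists were chosen with earlier results of these data known.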

Additional observations from a re-analysis of the deposited data

Results flagged for a closer look

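The caffeine response of 4 of the 10 autophagy genes differed between strains by the edgeR interaction test, in 10 differences of log2 fold changes. Against BY4742 1 of the 10 genes was called in YPS606, 4 in Y55 and 2 in UWOPS87-2421. Over all genes 12.8%, 29.1% and 22.2% were called, so the counts in YPS606 and UWOPS87-2421 were not above the share. For YPS606, 2 were called against Y55 and 1 against UWOPS87-2421, beside 5.14% and 4.03% of all genes. Against BY4742 the response of ATG5 differed by -1.49 in Y55 and by -1.44 in UWOPS87-2421, that of ATG11 by -1.27 in Y55 and by -0.93 in UWOPS87-2421, and that of ATG8 by -1.37 in Y55. ATG29 differed from BY4742 by -1.08 in Y55 and by -0.98 in YPS606. Against Y55 the response of YPS606 was larger by 1.41 for ATG5 and by 1.07 for ATG11, and against UWOPS87-2421 it was larger by 1.36 for ATG5. Of these, the ATG29 difference in YPS606 was lost in 10 of 12 fits with 1 library left out and with RLE size factors (edgeR adjusted p = 0.055), that of ATG8 in Y55 without Y55 no caffeine replicate 2 (adjusted p = 0.0531), and that of ATG11 between YPS606 and Y55 with only the groups compared (adjusted p = 0.0607).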

How the results depend on the processing

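No paired analysis was made, because the labels give serial library numbers but no replicate numbers that the groups share. The serial numbers run through the 8 groups in the same order 3 times. The labels do not say whether a run shared a culture or a day, and a fit with the runs as blocks was not made. Over 2340 values of the 10 genes under an alternative, 2201 stayed on their side of the threshold, 60 lost and 79 gained a call, and 0 called values changed sign (130 that were never called did). RLE factors moved the median of all genes to at most 0.0452 in size. Counts of the 10 genes called that moved by over 1.5 times follow, and shares of all genes were not counted in these fits. With only the groups compared, the count for caffeine was 2 in YPS606, 0 in Y55 and 5 in UWOPS87-2421, and for YPS606 against BY4742 2 in caffeine and 1 without. It was 1 for the response of YPS606 minus that of Y55 and 2 for that minus UWOPS87-2421. DESeq2 and RLE factors each gave 2 for Y55 against BY4742 without caffeine and 3 for YPS606 against BY4742 in caffeine. DESeq2 gave 2 for the response of YPS606 minus that of UWOPS87-2421, and RLE factors 0 for that of YPS606 minus that of BY4742, where ATG29 had an adjusted p of 0.055. Length offsets gave 2 for YPS606 against BY4742 in caffeine. Without the 3 least typical libraries, the count was 2 for caffeine in Y55, 5 for YPS606 and 4 for Y55 against BY4742 without caffeine, 5 for YPS606 against BY4742 in caffeine, 5 for the response of UWOPS87-2421 minus that of BY4742 and 3 for that of YPS606 minus that of UWOPS87-2421. The cause was not tested.

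On leaving out single libraries, the count for caffeine was 2 to 6 in YPS606, 0 to 2 in Y55, 2 to 3 in UWOPS87-2421 and 5 to 7 in BY4742. Against BY4742 it was 1 to 3 in YPS606, 6 to 8 in Y55 and 5 to 9 in UWOPS87-2421 in caffeine, and 0 to 3, 0 to 4 and 2 to 4 without. For the response minus that of BY4742 it was 0 to 1 in YPS606, 3 to 6 in Y55 and 2 in UWOPS87-2421. For that of YPS606 it was 2 to 3 minus that of Y55 and 1 to 3 minus that of UWOPS87-2421. Y55 against UWOPS87-2421 stayed at 0. With 3 libraries per group, differences well under 2-fold in genes as low as ATG14 (50 to 257 counts) can be missed.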
